A study of Mus musculus with 24 samples.

Results

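Lysosomal enzymes and the vacuolar ATPase were followed at the RNA level in mouse microglia, the resident macrophages of the brain, through 48 genes of the 12889 in the deposited normalized table. They comprised every row whose symbol begins with Atp6v or Atp6ap (18 genes) and 30 genes chosen by name. By role they were 9 genes of the V1 domain, 7 of the V0 domain and 2 accessory subunits of the ATPase, 10 proteases, 8 glycosidases and sulfatase, 6 lipid hydrolases and activator or precursor proteins, 4 membrane proteins and the transcription factors Tfeb and Tfe3. Primary microglial cells of newborn (p0) mice gave 24 libraries in 8 groups of 3, which the series describes as independent preparations. CD14-deficient cells (KO) were from strain B6.129S4-Cd14tm1Frm/J, which carries a targeted Cd14 allele in all its cells, and wild-type cells (WT) were from C57BL/6. In each genotype 1 group received mouse fibronectin (FN) at 100 µg/ml, 1 was left untreated, and 1 each received Re-LPS, a truncated lipopolysaccharide, at 0.1 or 10 ng/ml, all with a treatment period of 3 h. CD14 is a co-receptor that hands LPS to the TLR4 complex, and the comparisons ask how TLR4 stimulation changes gene expression with and without it.

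Lysosomes degrade material that microglia take up, with hydrolases that work at acid pH. The vacuolar ATPase makes that acid: its cytosolic V1 domain hydrolyses ATP and its membrane V0 domain carries protons into the lumen. TFEB and TFE3, which belong to the MiT/TFE family together with MITF and TFEC, activate many lysosomal genes through promoter sites built around the letters CACGTG, and are held in the cytosol when the kinase mTORC1 is active on the lysosomal surface.

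Promoters were searched for this core and for the longer form TCACGTGA. RefSeq windows (GRCm38.p6, 250 bases before to 50 after the gene start) were available for 38 of the 48 genes, and not for Atp6v1g1, Atp6v0a2, Galns, Atp6v1b2, Asah1, Ctsh, Atp6v0d2, Atp6v1c1, Ctsb and Atp6v1h. Both letter strings are palindromes, so each match reads the same on both strands, and the longer contains the shorter. The 38 genes had 46 windows, and a gene was counted where any of its windows held the string. CACGTG was found for 13 of the 38 genes (34.2%) and for 8.06% of the other 26987 genes. Those others are all further genes with a window, whether or not they were expressed here. TCACGTGA was found for 7 (18.4%) and for 1.1% of the others. These 7 genes cover the ATPase, a protease each of the aspartic and serine classes and the lysosomal membrane, and the stretch around each match is shown because these letters are the core of the sites that TFEB and TFE3 bind. Capitals mark TCACGTGA, and each stretch runs 5′ to 3′ on the strand of its gene.
Atp6v0d1 (V0 subunit d1, chr8:105566041-105566088, minus strand): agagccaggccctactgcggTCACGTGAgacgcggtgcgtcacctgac
Atp6v0e (V0 subunit e1, chr17:26676378-26676425, plus strand): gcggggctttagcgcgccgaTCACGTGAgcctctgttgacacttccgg
Atp6v1a (V1 subunit A, chr16:44139364-44139411, minus strand): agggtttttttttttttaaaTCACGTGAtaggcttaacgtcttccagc
Cln3 (lysosomal membrane protein, chr7:126583331-126583378, minus strand): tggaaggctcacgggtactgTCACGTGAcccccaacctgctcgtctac
Ctsa (cathepsin A, chr2:164833740-164833787, plus strand): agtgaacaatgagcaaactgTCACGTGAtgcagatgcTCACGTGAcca
Ctsd (cathepsin D, chr7:142387899-142387946, minus strand): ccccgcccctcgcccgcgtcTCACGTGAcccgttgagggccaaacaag
Mcoln1 (calcium channel, chr8:3500453-3500500, plus strand): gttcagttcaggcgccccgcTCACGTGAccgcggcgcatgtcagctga
Cln3 and Ctsa each had 2 windows, for different starts, and the longer string was found in a single window of each. These matches lie inside the annotated spans of the 2 genes. The matching window of Ctsa held the string at 2 places. The match lay 122 bases before the RefSeq start of its window in Cln3, 99 in Ctsd, 46 in Mcoln1 and 132 in Atp6v1a. A match is a description of the letters and not of a bound factor.

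The libraries held 14939019 to 22143774 counts. Cd14 stood at 2.14 to 6.37 CPM (counts scaled to a common TMM-adjusted library size) in the 12 KO libraries and at 338 to 5329 CPM in the 12 WT libraries, which fits the labels. All 11 microglial markers were detected, and their summed level was lower in the libraries at LPS 10 ng/ml (7860 to 9270 CPM in KO and 8760 to 9970 CPM in WT) than in untreated ones (9720 to 10100 CPM in KO and 10200 to 11400 CPM in WT). The markers did not move together. From untreated to LPS 10 ng/ml the mean of Cx3cr1 went from 1040 to 348 CPM in KO and from 1090 to 184 CPM in WT cells. Csf1r went from 2340 to 2430 CPM in KO and from 2770 to 2060 CPM in WT cells. Aif1, Itgam and C1qa were higher in both genotypes, Tmem119 in KO and Tyrobp in WT cells, and the other markers were lower. The sums of 10 vascular and fibroblast markers were 20.9 to 37.1 CPM in KO and 24.2 to 55.3 CPM in the WT LPS 10 ng/ml libraries, and 5.99 to 10.6 CPM in KO and 4.52 to 10.7 CPM in WT untreated ones. With FN the microglial sums were 9470 to 10400 CPM in KO and 9070 to 9610 CPM in WT libraries, and the vascular and fibroblast sums 3.3 to 6.83 CPM in KO and 20.7 to 48.7 CPM in WT libraries. Sums of oligodendrocyte lineage markers with FN were 179 to 257 CPM in KO and 255 to 467 CPM in WT libraries. Kdr and Pdgfrb made up most of the vascular and fibroblast sums, while Cldn5, Lum and Dcn stayed at or near 0 in every library. The part of all these marker differences in the results was not tested. The ribosomal precursor transcript Rn45s made up 8.21% of KO LPS 0.1 ng/ml replicate 2, 3.62% of WT LPS 0.1 ng/ml replicate 3 and 5.92% of WT LPS 10 ng/ml replicate 3, and under 3% of every other library. In such bulk samples fewer cells of a type and less RNA per cell cannot be told apart.

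The 48 transcripts differed widely in abundance. All passed the filter on low counts. Per kilobase of exon, averaged over the 24 libraries, the most abundant were the proteases Ctsd (7090 CPM per kb) and Ctsb (3190), followed by Psap (1650), the precursor of the saposin activators of lipid hydrolysis. The cathepsins Ctss (1220) and Ctsz (1020) came next. Least abundant were Tfeb (3.27 CPM per kb), the brain-type V0 subunit gene Atp6v0e2 (2.42) and the V1 subunit gene Atp6v1g2 (1.35). Together the genes took 5.42 ± 0.866% of all counts in KO and 4.78 ± 0.606% in WT libraries at LPS 10 ng/ml (mean ± SD, n = 3), and with FN 6.85 ± 1.13% in KO and 4.97 ± 0.957% in WT libraries. In untreated libraries the share was 8.37 ± 1.27% in KO and 8.22 ± 1.14% in WT. These shares are of raw counts. Relative to library totals, the median of all tested genes at LPS 10 ng/ml was -0.50 (log2) in KO and -0.80 in WT, and with FN in WT it was -0.78. Changes below are log2 fold changes ± standard error after TMM scaling, which sets that median near 0, and adjusted p-values are from edgeR quasi-likelihood tests across 13294 genes. A gene is said to have risen or fallen where the adjusted p was under 0.05.

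Most of these genes changed little. KO cells at LPS 10 ng/ml gave 8 rises and 8 falls, 33.3% of the 48, against 42.9% of all tested genes called (21.2% higher and 21.6% lower). In WT cells at that dose 7 rose and 8 fell (31.2%, against 49.4% of all genes, 23.3% higher and 26.1% lower), and the median absolute log2 fold change was 0.28 for the 48 and 0.62 for all tested genes. With FN 2 rose and 2 fell in KO cells (8.33%, against 16.4%, 9.23% higher and 7.17% lower), and 8 rose and 7 fell in WT cells (31.2%, against 50.2%, 23.7% higher and 26.5% lower). At LPS 0.1 ng/ml none of the 48 was called by edgeR in KO cells (against 0.73% of all genes, 0.722% higher), 1 (Tfe3, at 0.33) was at an unadjusted p under 0.05, and DESeq2 called 1. In WT cells 3 rose at that dose (6.25%, against 15.6%, 9.94% higher and 5.66% lower). The replicate numbers pair the libraries in the data, and a replicate block nested in genotype raised the counts to 30 in KO and 31 in WT cells at LPS 10 ng/ml, 25 in KO and 32 in WT cells with FN, and 1 in KO and 20 in WT cells at 0.1 ng/ml. The shares of all genes given here are from the fit without the block, so they do not apply to these counts. In WT cells with FN the largest rises were those of Cln3 (1.78), Ctsc (1.59), Atp6v1e1 (1.49), Atp6v0b (0.78), Ctsz (0.66) and Atp6v1h (0.61), of which the last 3 were below 0 over library totals alone, and the largest falls those of Tfeb (-3.51), Atp6v0d2 (-1.07), Neu1 (-0.77), Smpd1 (-0.74), Atp6v0a1 (-0.60) and Idua (-0.35). Between FN and LPS 10 ng/ml the sign differed for 8 of the 48 genes in KO cells (Atp6v0e, Atp6v1c1, Atp6v1d, Ctsh, Ctsl, Ctss, Lamp1 and Lamp2) and 2 in WT cells (Galns and Tpp1), none of them called. Over library totals alone the split at LPS 10 ng/ml was 3 higher and 27 lower in KO and 3 higher and 35 lower in WT cells, and with FN in WT cells 3 higher and 34 lower. Of all 13294 genes that scaling called 1502 higher and 5630 lower in KO and 1444 higher and 7408 lower in WT cells at that dose. With FN in WT cells it called 1490 of all genes higher and 7389 lower. For WT cells and LPS 0.1 ng/ml that scaling gave 1 higher and 4 lower (all genes: 925 higher and 1597 lower). Upper-quartile scaling gave 3 higher and 11 lower in KO and 4 higher and 11 lower in WT cells for LPS 10 ng/ml, and with FN 5 higher and 13 lower in WT cells. Of all genes it called 5877 in KO and 6812 in WT cells at that dose, and 6929 with FN in WT cells. Every call between a stimulus and untreated cells of the fit without the block was also made with it.

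**Figure D1:**
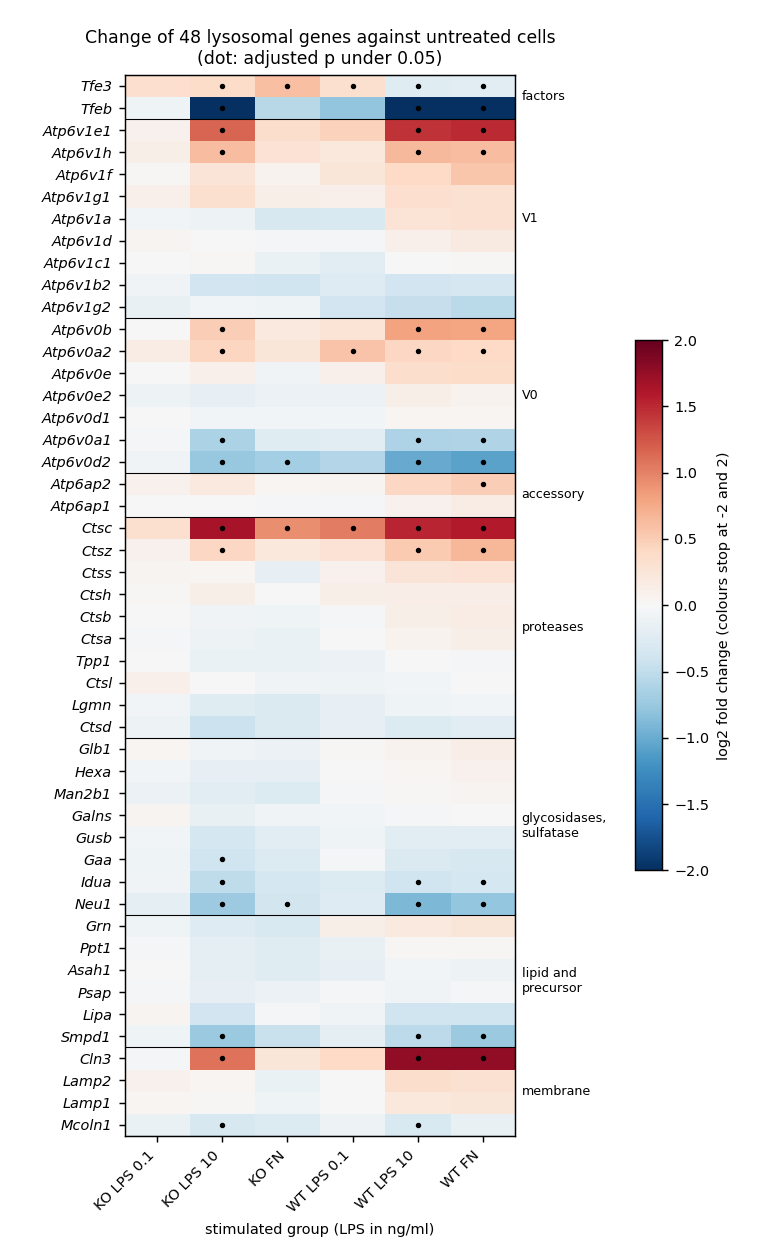
Log2 fold changes of the 48 genes, grouped by role (rows), in 6 stimulated groups against untreated cells of the same genotype (columns, 3 libraries per group). Colour gives the TMM-scaled change, red for higher and blue for lower in stimulated cells, stops at -2 and 2, and a black dot marks an adjusted p under 0.05. Tfeb was lowest in the LPS 10 ng/ml groups and with FN in WT, while Cln3, Ctsc and Atp6v1e1 were highest there and most genes lay near 0.

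**Figure D2:**
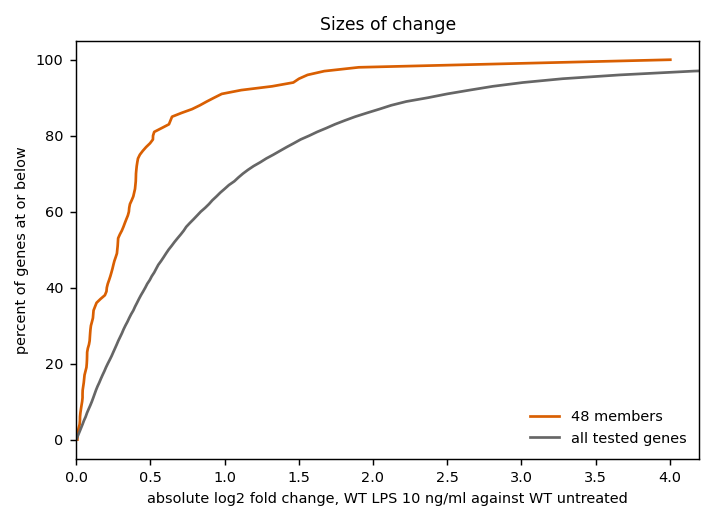
Percent of genes (vertical axis) with an absolute log2 fold change at or below the value on the horizontal axis, in WT cells at LPS 10 ng/ml against WT untreated, for the 48 genes and for all 13294 tested. The curve of the 48 genes lies left of that of all genes, with medians of 0.28 and 0.62.

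Tfeb, the transcription factor that activates lysosomal genes, showed the largest fall of the set. It occupies chr17:47737030-47792419 (GRCm38, plus strand) and had 13 to 984 reads per library. In KO cells its level was 4.88, 7.42 and 13.01 CPM at LPS 10 ng/ml and 18.4, 23.03 and 27.0 CPM with FN, against 31.2, 36.1 and 33.3 CPM untreated. Both stimulated groups lay below the untreated range, and the first was called (-1.99 ± 0.32, adjusted p = 5.54e-05) while FN was not (-0.56 ± 0.31, adjusted p = 0.265). At LPS 0.1 ng/ml the KO libraries held 31.3, 30.5 and 32.9 CPM, which overlapped the untreated ones.

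WT libraries held 2.31, 2.095 and 1.19 CPM of Tfeb at LPS 10 ng/ml and 3.28, 2.77 and 1.89 CPM with FN, against 32.4, 26.2 and 32.0 CPM untreated. Both stimulated groups lay far below the untreated group with no overlap, with log2 fold changes of -4.00 ± 0.36 for the LPS group (adjusted p = 2.95e-08) and -3.51 ± 0.35 for the FN group (adjusted p = 1.03e-07). At LPS 0.1 ng/ml WT libraries held 14.0, 12.7 and 25.6 CPM, all below the untreated ones, and the test was not passed (-0.79). All 3 KO libraries lay above all 3 WT libraries at LPS 10 ng/ml, and likewise with FN. Tests of the difference in response gave 2.01 ± 0.45 for LPS 10 ng/ml (adjusted p = 0.0125) and 2.95 ± 0.45 for FN (adjusted p = 9.11e-05), where such an interaction is the log2 fold change in KO minus that in WT cells.

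Tfe3, the related factor, responded differently in the genotypes to LPS 10 ng/ml and to FN. In KO cells it stood at 196.8, 195.4 and 200.8 CPM at LPS 10 ng/ml and 239.8, 229.3 and 230.6 CPM with FN, against 161.7, 144.7 and 153.2 CPM untreated. The stimulated KO libraries all lay above the untreated ones (0.37 ± 0.08, adjusted p = 0.00117 and 0.61 ± 0.08, adjusted p = 3.55e-05), although over library totals alone the change at LPS 10 ng/ml was -0.119 and not called. WT cells held 142.8, 126.3 and 118.2 CPM at LPS 10 ng/ml and 140.3, 129.9 and 124.9 CPM with FN, against 163.1, 145.1 and 149.9 CPM untreated. The falls were small (-0.24 ± 0.08, adjusted p = 0.0184 and -0.21 ± 0.08, adjusted p = 0.036). They were lost when 1 of 3 libraries was left out at LPS 10 ng/ml (WT untreated replicate 1, WT LPS 10 ng/ml replicate 2 or 3, adjusted p up to 0.104) and 1 of 4 with FN (WT untreated replicate 1 or 3, WT FN replicate 2 or 3, up to 0.16). At LPS 0.1 ng/ml KO libraries held 199, 187.8 and 192.6 CPM of Tfe3, all above the untreated ones, but the test was not passed (0.33, adjusted p = 0.0735). WT libraries held 205.3, 178.8 and 190.4 CPM and the rise was called (0.33 ± 0.08, adjusted p = 0.00861). The WT call ended without WT untreated replicate 2 or WT LPS 0.1 ng/ml replicate 1 (adjusted p up to 0.0683), with the compared groups fitted alone, with upper-quartile scaling and over library totals alone (0.09, adjusted p = 0.553). The interaction at that dose was 0.01 ± 0.11 and not called. The interactions were 0.61 ± 0.12 for LPS 10 ng/ml (adjusted p = 0.00396) and 0.82 ± 0.12 for FN (adjusted p = 4.14e-05), and these 2 were called under every alternative tried.

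Tfec and Mitf, of the same family, rose where Tfeb fell. Tfec, which is expressed mainly in macrophages, held 396.2, 321.4 and 375.7 CPM in KO libraries at LPS 10 ng/ml, against 10.8, 9.06 and 6.21 CPM untreated (5.39 ± 0.38, adjusted p = 4.74e-09). In WT libraries it held 280.9, 174.9 and 282.3 CPM at that dose, against 8.94, 7.19 and 11 CPM untreated (4.77 ± 0.37, adjusted p = 6.37e-09). Mitf rose by 1.86 ± 0.31 in KO cells, and in WT libraries it held 573.3, 458.9 and 357.6 CPM, against 95.5, 53.6 and 67.2 CPM untreated (2.68 ± 0.32, adjusted p = 1.11e-06). No stimulated library of these comparisons overlapped an untreated one. For both genes the response to FN was smaller in KO than in WT cells (interaction -1.45 ± 0.46, adjusted p = 0.0277 for Tfec and -1.55 ± 0.43, adjusted p = 0.0124 for Mitf), but neither interaction was called over library totals alone, and that of Tfec ended when 1 of 6 libraries was left out (KO untreated replicate 1 or 2, KO FN replicate 2, WT untreated replicate 1 or 2, WT FN replicate 1, adjusted p up to 0.0768).

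**Figure D3:**
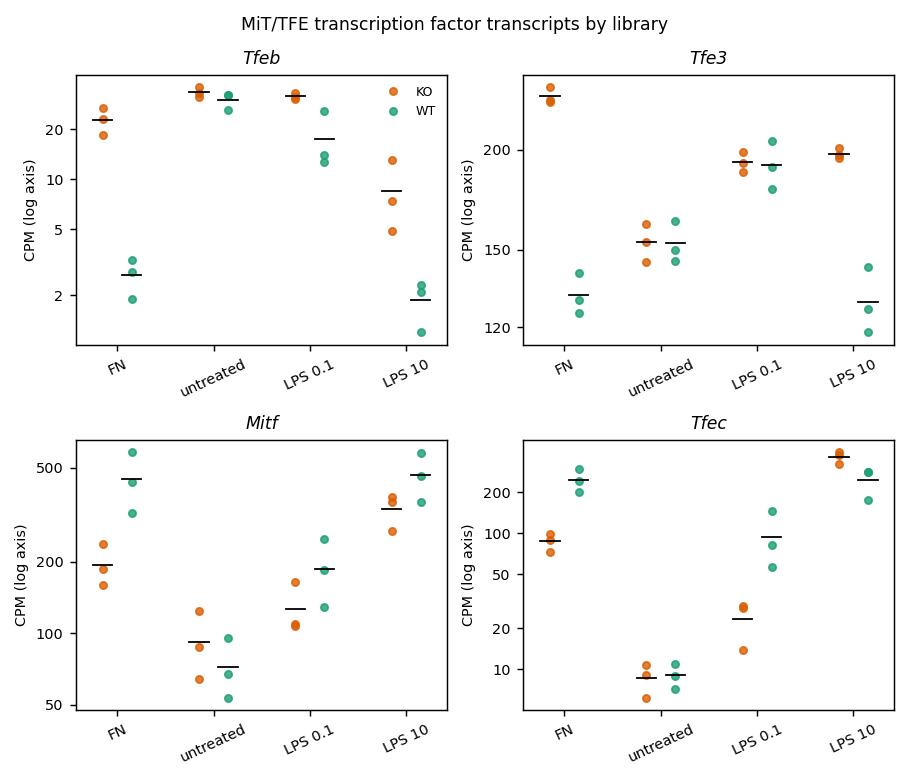
Levels of the 4 MiT/TFE transcription factor transcripts in CPM (log axis) in every library, by treatment (FN, untreated, LPS 0.1 and 10 ng/ml), with KO points left of WT points and a black bar at each mean of 3. Tfeb was lowest and Tfec and Mitf were high in both strongly stimulated WT groups, and KO libraries with FN kept Tfeb at 18.4 to 27.0 CPM.

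Of the list of nutrient sensing genes at the lysosome with Mitf and Tfec, 20 were tested, and at LPS 10 ng/ml 4 rose and 6 fell in KO cells (median -0.09) and 6 rose and 7 fell in WT cells (median 0.07), against a median of -0.01 for all genes in each. The test called 42.9% of all genes in KO cells (21.2% higher and 21.6% lower) and 49.4% in WT cells (23.3% higher and 26.1% lower) at that dose. The falls included the folliculin complex, which acts on the Rag GTPases that control mTORC1 and TFE3. Flcn fell in KO cells by 1.62 ± 0.20 (adjusted p = 3.1e-06). It held 16.5, 20.9 and 17.5 CPM in WT libraries at that dose, against 97.9, 116.9 and 122.8 CPM untreated, with no overlap (-2.62 ± 0.21, adjusted p = 7.32e-09). Its response to FN was smaller in KO cells (interaction 1.67 ± 0.28, adjusted p = 0.000228). Its partner gene Fnip2 fell by 2.49 ± 0.39 in KO cells (adjusted p = 4.14e-05) and by 2.68 ± 0.39 in WT cells (adjusted p = 1.35e-05). Rragc, a Rag GTPase gene and the most abundant of those not called, changed by -0.14 ± 0.18 in WT cells.

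Within the V1 domain 2 of 9 genes rose and none fell at LPS 10 ng/ml, in KO and in WT cells (all tested genes: 21.2% higher and 21.6% lower in KO, 23.3% higher and 26.1% lower in WT). Atp6v1e1, which encodes a subunit of the peripheral stalk, occupies chr6:120794305-120822793 (GRCm38, minus strand). KO libraries held 437.6, 358.0 and 423.0 CPM at LPS 10 ng/ml and 231.2, 208.0 and 249.4 CPM with FN, against 155.4, 155.0 and 231.2 CPM untreated. The LPS group was higher throughout (1.17 ± 0.17, adjusted p = 1.68e-05), and the FN group overlapped the untreated one. Each KO FN library was still above the untreated KO library of its replicate number. WT libraries held 532.2, 430.6 and 430.7 CPM at LPS 10 ng/ml and 541.2, 454.1 and 438.8 CPM with FN, against 170.5, 172.8 and 167.3 CPM untreated. Neither group overlapped the untreated one, and the rises were 1.45 ± 0.17 (adjusted p = 8.89e-07) and 1.49 ± 0.17 (adjusted p = 6.23e-07). The interaction with FN was -1.14 ± 0.24 (adjusted p = 0.00146). Atp6v1h, which encodes the regulatory H subunit, rose by 0.62 ± 0.16 in KO and by 0.65 ± 0.16 in WT cells at the 10 ng/ml dose, but over library totals alone it was at -0.15 in WT cells. The A and B subunits, which form the catalytic head, were not called, with Atp6v1a at 0.27 and Atp6v1b2 at -0.38 in WT cells. Atp6v1b2 held 476, 501.8 and 396.8 CPM in the WT LPS 10 ng/ml libraries, against 569.1, 605.3 and 618.8 CPM untreated, with no overlap. In both genotypes each of its libraries at that dose was below the untreated one of its replicate number. For Atp6v1a each was above in WT and below in KO cells. The test leaves out that pairing.

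Within the V0 domain 2 of 7 genes rose and 2 fell at LPS 10 ng/ml in both genotypes, where 42.9% of all tested genes were called in KO (21.2% higher, 21.6% lower) and 49.4% in WT cells (23.3% higher, 26.1% lower). Atp6v0d2, the d subunit isoform known from osteoclasts and macrophages, held 39.01, 33.44 and 35.85 CPM in KO libraries at LPS 10 ng/ml, against 69.38, 44.69 and 68.50 CPM untreated, with no overlap (-0.75 ± 0.22, adjusted p = 0.00952). Its fall with FN in KO cells (-0.69 ± 0.22, adjusted p = 0.0386) was not called without KO untreated replicate 1 or 3 or KO FN replicate 2 or 3 (adjusted p up to 0.153). WT libraries held 29.07, 32.40 and 21.12 CPM at LPS 10 ng/ml and 27.25, 32.95 and 18.85 CPM with FN, against 57.67, 55.90 and 52.34 CPM untreated. The stimulated libraries were all lower (-1.01 ± 0.22, adjusted p = 0.000882 and -1.07 ± 0.22, adjusted p = 0.000496). The other d isoform, Atp6v0d1, which is used in all tissues and whose promoter holds TCACGTGA, stood at -0.06 in KO cells and 0.04 in WT cells under LPS 10 ng/ml, not called.

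The a subunits, which anchor the pump and differ by organelle, included 1 gene that fell. Atp6v0a1 fell in KO cells by 0.63 ± 0.18 (adjusted p = 0.00898), a call that ended without KO untreated replicate 3 (adjusted p = 0.0665). It held 297.7, 328.7 and 242.6 CPM in the WT LPS 10 ng/ml libraries, against 478.1, 444.3 and 417.5 CPM untreated, with no overlap (-0.62 ± 0.18, adjusted p = 0.00754). Atp6v0a2 was far less abundant, at 24.03, 23.87 and 32.96 CPM in the WT LPS 10 ng/ml libraries, against 19.54, 20.73 and 20.23 CPM untreated. Its rise of 0.42 ± 0.15 (adjusted p = 0.0251) turned to -0.384 over library totals alone and was not called without WT untreated replicate 1 or 3 or WT LPS 10 ng/ml replicate 3 (adjusted p up to 0.197). WT libraries at the 0.1 ng/ml dose held 30.18, 28.77 and 31.31 CPM of Atp6v0a2, all above the untreated ones (0.58 ± 0.15, adjusted p = 0.0106). That call held in every fit that left out 1 library, but not with upper-quartile scaling or over library totals alone (0.343, adjusted p = 0.179). Atp6v0b, a subunit of the proton-carrying ring, held 357.2, 393.5 and 358.5 CPM in the WT LPS 10 ng/ml libraries, against 187.3, 231.6 and 219.3 CPM untreated. All stimulated libraries were higher (0.80 ± 0.15, adjusted p = 0.000244), while over library totals alone the value was -0.001. KO cells at LPS 10 ng/ml gave rises of 0.50 ± 0.15 for Atp6v0b (adjusted p = 0.0128), not called without KO untreated replicate 1 or KO LPS 10 ng/ml replicate 3 (adjusted p up to 0.091), and of 0.43 ± 0.15 for Atp6v0a2 (adjusted p = 0.0266; -0.055 over library totals alone), not called in 4 of 24 fits that left out 1 library (up to 0.12). The accessory subunit gene Atp6ap2, also known as the prorenin receptor, rose with FN in WT cells (0.48 ± 0.18, adjusted p = 0.0327; -0.308 over library totals alone), and leaving out any 1 of 5 libraries (the 3 WT untreated, WT FN replicates 1 and 2) ended the call (adjusted p up to 0.142). A further 5 ATPase genes were in the count table alone, among them Atp6v0c, the main ring subunit, with 2 to 11 counts per library.

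Among the 10 proteases 2 (Ctsc and Ctsz) rose and none fell at LPS 10 ng/ml in either genotype, though over library totals alone Ctsz was at -0.077 in KO and -0.285 in WT cells. The share of all tested genes that rose was 21.2% in KO and 23.3% in WT cells, and 21.6% in KO and 26.1% in WT cells fell. Ctsc, or cathepsin C, which activates serine proteases of immune cells, occupies chr7:88278085-88310888 (GRCm38, plus strand). KO libraries held 1698, 1736 and 1331 CPM at LPS 10 ng/ml and 1168, 936.9 and 791.4 CPM with FN, against 580.9, 465.2 and 469.3 CPM untreated. Neither group overlapped the untreated one (1.65 ± 0.25, adjusted p = 2.88e-05 and 0.93 ± 0.25, adjusted p = 0.0124), though the FN call ended without KO untreated replicate 2 or KO FN replicate 1 (adjusted p up to 0.0694). WT libraries held 667.0, 504.9 and 560.6 CPM untreated, 1413, 1177 and 939.6 CPM at LPS 0.1 ng/ml and 1453, 1280 and 2269 CPM at LPS 10 ng/ml. Every stimulated library was above every untreated one, and the rises were 1.03 ± 0.25 at the lower dose (adjusted p = 0.00654) and 1.53 ± 0.25 at the higher (adjusted p = 4.31e-05).

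Ctsz, a carboxypeptidase, held 1870, 1833 and 2020 CPM in WT libraries with FN, against 1074, 1289 and 1261 CPM untreated. All FN libraries were higher (0.66 ± 0.10, adjusted p = 2.58e-05), but over library totals alone the value was -0.131. The most abundant proteases were not called. Ctsb, a cysteine protease, held 19680, 20090 and 21110 CPM in the WT LPS 10 ng/ml libraries, against 17610, 18520 and 20190 CPM untreated, and the groups overlapped (0.11, 95% interval -0.22 to 0.44). Each of these LPS libraries was above the untreated one of its replicate number, and the interval leaves out that pairing. Ctsd, an aspartic protease with the longer promoter match, stood at -0.28 ± 0.24 there. It held 13060, 17390 and 16860 CPM in those LPS libraries, against 15940, 20420 and 21050 CPM untreated, and the groups overlapped. In both genotypes each LPS 10 ng/ml library was below the untreated one of its replicate number for Ctsd, and its standard error also leaves out that pairing. The other 6 (Ctsa, Ctsh, Ctsl, Ctss, Lgmn and Tpp1) lay between -0.09 and 0.26.

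The 8 glycosidases and sulfatase included no gene that rose and 3 that fell in KO cells and 2 that fell in WT cells at LPS 10 ng/ml, against 21.2% of all tested genes higher and 21.6% lower in KO cells and 23.3% higher and 26.1% lower in WT cells. Neu1, the lysosomal sialidase, occupies chr17:34931253-34935953 (GRCm38, plus strand). KO libraries held 77.56, 65.52 and 65.46 CPM at LPS 10 ng/ml and 88.90, 87.43 and 89.38 CPM with FN, against 111.4, 113.4 and 118.7 CPM untreated. Both stimulated groups were below the untreated one (-0.72 ± 0.12, adjusted p = 9.59e-05 and -0.37 ± 0.12, adjusted p = 0.0435), and the FN call was lost in 13 of 24 fits that each left out 1 library (adjusted p up to 0.108). WT libraries held 55.58, 72.06 and 53.25 CPM at LPS 10 ng/ml, against 112.3, 118.7 and 105.9 CPM untreated, with no overlap (-0.90 ± 0.12, adjusted p = 5.9e-06). Idua, which cleaves iduronic acid from glycosaminoglycans, fell by 0.50 ± 0.12 in KO and 0.40 ± 0.12 in WT cells under LPS 10 ng/ml. Dgkq and Slc26a1 overlap it on the opposite strand, where reads cannot be told apart without the strand setting. Gaa, the acid glucosidase of glycogen, fell in KO cells (-0.41 ± 0.16, adjusted p = 0.0454), and 12 of 24 such fits lost the call (adjusted p up to 0.176).

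Of the 6 lipid hydrolases and activator or precursor genes, Smpd1 was the only one called against untreated cells. It encodes acid sphingomyelinase and stood at -0.75 ± 0.17 in KO cells at LPS 10 ng/ml (adjusted p = 0.00192). It held 14.45, 22.82 and 15.79 CPM in the WT LPS 10 ng/ml libraries and 13.17, 17.28 and 15.08 CPM with FN, against 24.11, 26.13 and 25.80 CPM untreated. The stimulated libraries were lower throughout (-0.52 ± 0.17, adjusted p = 0.0188 and -0.74 ± 0.18, adjusted p = 0.00156), and the LPS call ended without WT LPS 10 ng/ml replicate 1 or 3 (adjusted p up to 0.102). Psap stood at -0.07 ± 0.20 in WT cells at that dose and was not called. Grn, the progranulin precursor, differed between genotypes instead: it held 1558, 1744 and 1545 CPM in KO libraries with FN, against 2042, 2501 and 2577 CPM in WT libraries with FN. The KO libraries were all lower (-0.55 ± 0.15, adjusted p = 0.00581), but over library totals alone the value was 0.098.

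Cln3, mutated in juvenile neuronal ceroid lipofuscinosis, showed the largest rise of the set in WT cells. It occupies chr7:126571207-126585817 (GRCm38, minus strand). KO libraries held 238.5, 306.3 and 277.7 CPM at LPS 10 ng/ml and 125.0, 158.0 and 177.1 CPM with FN, against 97.3, 129.6 and 161.4 CPM untreated. Those at LPS 10 ng/ml were all higher (1.08 ± 0.21, adjusted p = 0.000287), while those with FN overlapped the untreated ones. Each KO FN library was still above the untreated KO library of its replicate number. WT libraries held 326.2, 343.7 and 515.2 CPM at LPS 10 ng/ml and 362.6, 335.0 and 494.1 CPM with FN, against 108.7, 117.9 and 120.8 CPM untreated. No stimulated WT library overlapped an untreated one (1.77 ± 0.21, adjusted p = 9.95e-07 and 1.78 ± 0.21, adjusted p = 9.27e-07). Apobr, on the opposite strand, overlaps Cln3 by 876 bases and rose by 2.07 ± 0.26 in WT cells at LPS 10 ng/ml (adjusted p = 2.16e-06), and since use of strand in counting is not given, reads in the overlap cannot be told apart. Mcoln1, a calcium channel of the lysosome, fell by 0.31 ± 0.13 in WT cells (adjusted p = 0.0489), a call lost in 15 of 24 fits that left out 1 library (adjusted p up to 0.165). Lamp1 stood at 0.21 and Lamp2 at 0.36 there, and neither was called. For both genes each WT LPS 10 ng/ml library was above the untreated one of its replicate number.

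**Figure D4:**
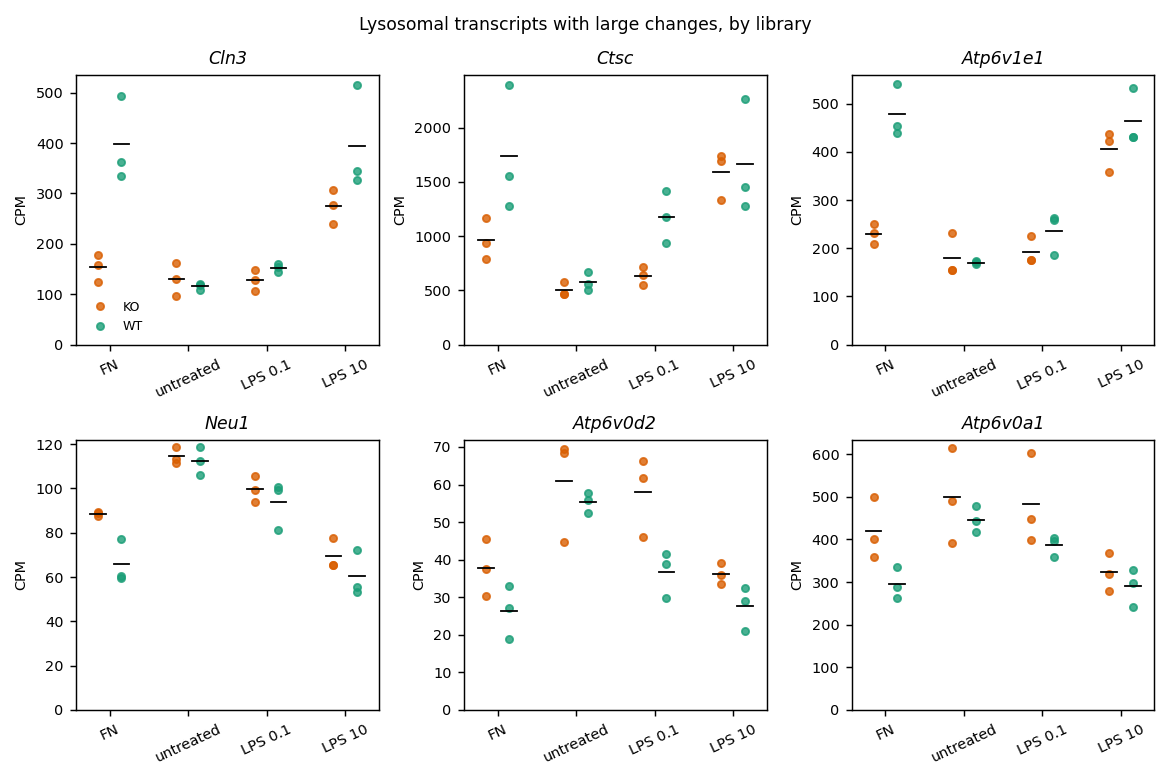
Levels of 6 lysosomal genes in CPM in every library (linear axes from 0), by treatment (FN, untreated, LPS 0.1 and 10 ng/ml), with KO points left of WT points and a black bar at each mean of 3. Cln3, Ctsc and Atp6v1e1 were high and Neu1, Atp6v0d2 and Atp6v0a1 low at LPS 10 ng/ml, and with FN the KO libraries of Cln3 (125.0 to 177.1 CPM) lay below the WT ones (335.0 to 494.1 CPM).

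Between genotypes, none of the 48 genes was called by edgeR in untreated cells (0.00752% of all genes called, no member at an unadjusted p under 0.05, none by DESeq2). At LPS 0.1 ng/ml 1 was called (against 9.3% of all genes, 2.97% higher and 6.33% lower): Ctsc was lower in KO cells (-0.89 ± 0.25, adjusted p = 0.0265), which did not hold without WT LPS 0.1 ng/ml replicate 1 or 2 or KO LPS 0.1 ng/ml replicate 2 or 3 (adjusted p up to 0.154). At LPS 10 ng/ml 2 were higher and 1 lower (against 15.9%, 8.05% higher and 7.85% lower; 5 higher and none lower over library totals alone, 2 higher and none lower with upper-quartile scaling), namely Tfeb (2.16 ± 0.34), Tfe3 (0.61 ± 0.08) and Grn (-0.47 ± 0.15, adjusted p = 0.0391, lost in 6 of 24 fits that left out 1 library, with adjusted p up to 0.202). With FN 4 were higher and 8 lower in KO cells (against 38.6%, 21% higher and 17.6% lower), while over library totals alone 22 were higher and 2 lower and with upper-quartile scaling 5 were higher and 3 lower. Of all tested genes these 2 scalings called 7955 and 5279 with FN, and 4097 and 1937 at LPS 10 ng/ml. The FN libraries of the genotypes also differed in vascular and fibroblast marker sums (3.3 to 6.83 CPM in KO and 20.7 to 48.7 CPM in WT), and the part of this in the calls was not tested. The higher ones were Tfeb (3.11 ± 0.34, adjusted p = 8.97e-07), Tfe3 (0.82 ± 0.08, adjusted p = 2.91e-07), Atp6v0a1 (0.51) and Neu1 (0.43). The lower ones were led by Cln3 (-1.37 ± 0.21, adjusted p = 3.18e-05), Atp6v1e1 (-1.06 ± 0.17, adjusted p = 5.53e-05) and Ctsc (-0.85 ± 0.25, adjusted p = 0.00947), and the other 5 (Grn at -0.55, Ctss at -0.55, Ctsz at -0.48, Atp6ap2 at -0.47 and Atp6v0b at -0.44) were above 0 over library totals alone. Leaving out 1 library ended the call of Ctsc without KO FN replicate 3 or WT FN replicate 3 (adjusted p up to 0.0878), of Atp6v0a1 in 4 of 24 fits (up to 0.175), of Atp6v0b in 5 (up to 0.15) and of Atp6ap2 in 14 (up to 0.209).

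Tests of the interaction asked whether the response itself differed. For FN 2 genes were higher and 3 lower (against 23.1% of all genes, 11.8% higher and 11.3% lower), over library totals alone 11 were higher and 2 lower (5807 of all tested genes called), and the nested block raised the count of calls to 25. Shares of all genes in this paragraph are from the TMM-scaled fit without the block. Besides Tfeb and Tfe3 they were Cln3 (-1.53 ± 0.29, adjusted p = 0.000664), Atp6v1e1 (-1.14 ± 0.24, adjusted p = 0.00146) and Ctsz (-0.45 ± 0.14, adjusted p = 0.0315). The value for Ctsz was 0.2 over library totals alone, and its call was lost in 7 of 24 fits that left out 1 library (adjusted p up to 0.0978). For LPS 10 ng/ml Tfeb and Tfe3 were the 2 genes called (against 5.28%, 1.96% higher and 3.32% lower), and 6 with the nested block. For LPS 0.1 ng/ml edgeR called none (against 2.29%, 0.188% higher and 2.11% lower), none was at an unadjusted p under 0.05, DESeq2 called none, and the nested block gave 2.

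The doses and stimuli were also compared directly within each genotype. These contrasts share libraries with those above. At LPS 10 against 0.1 ng/ml 6 genes were higher and 6 lower in KO cells (against 36.7% of all genes, 18.3% higher and 18.5% lower), and 4 were higher and 3 lower in WT cells (against 32.2%, 14.8% higher and 17.4% lower). Over library totals alone the split was 3 higher and 24 lower in KO and 2 higher and 22 lower in WT cells, and with upper-quartile scaling 3 higher and 9 lower in KO and 2 higher and 5 lower in WT cells. Of all tested genes the former called 6217 in KO and 6957 in WT cells, and the latter 5008 and 4230. Cln3 was higher by 1.10 ± 0.21 in KO and by 1.37 ± 0.21 in WT cells, and Tfeb stood at -1.90 ± 0.32 in KO and at -3.21 ± 0.35 in WT cells. Ctsc was higher at the larger dose in KO cells (1.33 ± 0.25, adjusted p = 0.000339), while in WT cells it stood at 0.50 and was not called. FN against LPS 10 ng/ml gave no call in WT cells by edgeR for these genes (against 0% of all genes), none at an unadjusted p under 0.05 and none by DESeq2. In KO cells 1 was higher and 2 lower with FN (against 17%, 7.55% higher and 9.43% lower; 6 higher and 1 lower over library totals alone, 4 higher and 2 lower with upper-quartile scaling): Tfeb (1.43 ± 0.32, adjusted p = 0.00386), Cln3 (-0.84 ± 0.20, adjusted p = 0.00792) and Atp6v1e1 (-0.82 ± 0.17, adjusted p = 0.00206). Library totals alone and upper-quartile scaling called 3990 and 2364 of all tested genes there.

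The scaling sets where 0 lies for the smaller changes. At LPS 10 ng/ml in WT cells 45 of the 48 genes were below 0 over library totals alone, with a median of -0.76, against -0.80 for all genes. Cln3, Ctsc and Atp6v1e1 were the 3 above 0.

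**Figure D5:**
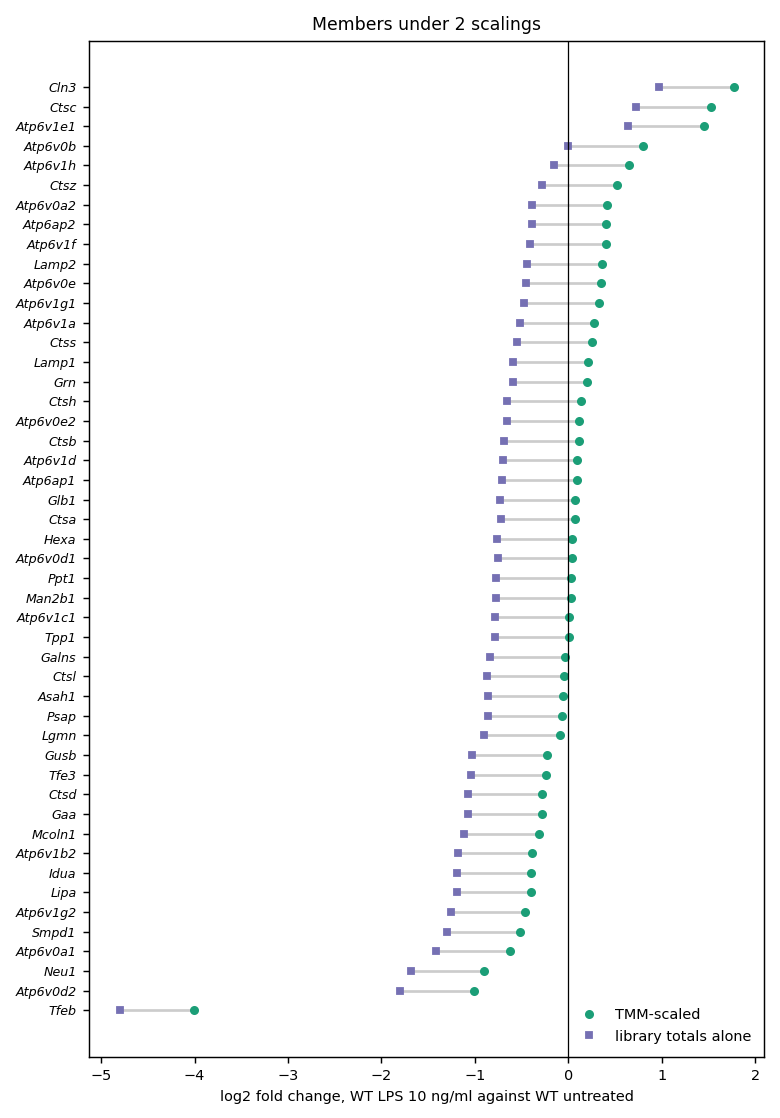
Log2 fold changes (horizontal axis) of the 48 genes (rows) in WT cells at LPS 10 ng/ml against WT untreated. Circles give the change after TMM scaling and squares the change over library totals alone, joined by a line for each gene. The squares lie left of the circles by about the median shift of all genes (-0.80), and 45 of the 48 squares lie below 0. Of the genes called after TMM scaling, Atp6v0b, Atp6v1h, Ctsz and Atp6v0a2 change sign, as do others that were not called.

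Other lysosomal genes were called in both directions at LPS 10 ng/ml, where 42.9% of all tested genes were called in KO cells (21.2% higher, 21.6% lower) and 49.4% in WT cells (23.3% higher, 26.1% lower). Of 30 further hydrolases 2 rose and 10 fell in KO cells and 2 rose and 8 fell in WT cells. Acp5, the tartrate-resistant acid phosphatase, rose by 3.94 ± 0.54 in KO and 5.01 ± 0.57 in WT cells, and Sgsh, a sulfamidase of heparan sulfate, fell by 2.47 ± 0.19 in KO and 2.93 ± 0.20 in WT cells. Pla2g15, a lysosomal phospholipase, fell by 1.59 ± 0.18 in KO cells, and Hyal1, a hyaluronidase, by 2.25 ± 0.53 in WT cells. Lyz2, the most abundant, stood at 0.15 in KO and 0.16 in WT cells and was not called. Of 29 membrane and transport genes 4 rose and 11 fell in KO cells and 8 rose and 10 fell in WT cells. The cystine transporter gene Ctns fell by 2.34 ± 0.21 in WT cells. Mcoln2, a relative of Mcoln1, rose by 2.06 ± 0.24 and Slc29a3, a nucleoside transporter, fell by 1.73 ± 0.23 in KO cells, and the amino acid transporter gene Slc36a1 fell by 2.12 ± 0.21 in WT cells. Gpnmb, the most abundant, stood at -0.18 in KO and -0.07 in WT cells and was not called.

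Of 14 genes for mannose 6-phosphate tagging and sorting, which brings hydrolases to the lysosome, 3 rose and 4 fell in KO cells and 4 rose and 5 fell in WT cells, beside the shares of all tested genes of 21.2% higher and 21.6% lower in KO and 23.3% higher and 26.1% lower in WT cells. The sorting receptor gene Sort1 fell by 0.71 ± 0.08 in KO and 0.67 ± 0.08 in WT cells. M6pr rose in WT cells (1.11 ± 0.37, adjusted p = 0.0182), which did not hold without WT untreated replicate 2 or 3 or WT LPS 10 ng/ml replicate 1 (adjusted p up to 0.115). Gnptab, which adds the tag, fell by 0.60 ± 0.15 in KO cells. The adaptor gene Gga2 fell by 0.50 ± 0.14 in KO cells, a call that ended without KO LPS 10 ng/ml replicate 2 (adjusted p = 0.0563), and by 0.67 ± 0.15 in WT cells. M6pr in KO cells (0.82) and Igf2r in WT cells (0.72), both mannose 6-phosphate receptors, were not called. Of 6 cathepsin inhibitor genes tested, 1 rose in KO and 2 in WT cells and none fell, against those same shares. Serpina3g had 51 counts in KO libraries at LPS 10 ng/ml, against 0 in KO untreated libraries, which is at least 22.5-fold higher with a floor of 3 counts over the group. In WT libraries it had 404 counts at that dose, against 2 untreated, a ratio of 337 with a 95% counting interval of 92.7 to 2790. Cstb rose in WT cells (0.59 ± 0.21, adjusted p = 0.0235; -0.208 over library totals alone), which did not hold without WT untreated replicate 2 or 3 or WT LPS 10 ng/ml replicate 1 (adjusted p up to 0.121). Cst3, the most abundant, stood at 0.09 in KO and 0.28 in WT cells and was not called.

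In the interaction with FN 4 of the 30 hydrolases were higher and 2 lower, 4 of the 29 membrane and transport genes were higher and 6 lower, 1 of the 14 tagging and sorting genes was higher and 1 lower, and none of the 6 inhibitors was called by edgeR, against 23.1% of all tested genes (11.8% higher and 11.3% lower). Acp5 stood at -4.33 ± 0.74 (adjusted p = 0.000289), Sgsh at 1.24 ± 0.26 (adjusted p = 0.00181) and Ctns at 1.38 ± 0.28 (adjusted p = 0.00132). Cd164 (-1.27 ± 0.37) and the peptide transporter gene Slc15a3 (-1.11 ± 0.27) were lower. Ap1s1, of the adaptor that sorts at the Golgi, was at -0.52 ± 0.13 and at 0.128 over library totals alone. Hyal2 (0.98 ± 0.34, adjusted p = 0.0469) was lost in 17 and Sort1 (0.31 ± 0.11, adjusted p = 0.0446) in 14 of 24 fits that left out 1 library.

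The calls were also set beside the promoter letters. At LPS 10 ng/ml in WT cells 1 of the 7 with TCACGTGA rose (Cln3), 1 fell (Mcoln1) and 5 were not called, with a median of 0.07. Of all tested genes 23.3% were called higher and 26.1% lower there. The Mcoln1 call was lost in 15 of 24 fits that left out 1 library, and Cln3 overlaps Apobr. Of the 6 with CACGTG but not the longer string 1 rose and 5 were not called, and of the 25 with neither 3 rose, 6 fell and 16 were not called, with a median of 0.03. These counts describe the windows that were available, and the role of the letters in the values was not tested.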

How the data were processed

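RNA was extracted with Trizol and sequenced on a HiSeq2000 after TruSeq library preparation, per the labels' protocols. The authors deposited whole-number counts per gene, and normalized values (unit signal) that equal the deposited counts divided by 1 factor per library. The submitters' processing notes name build mm10, the aligner Bowtie2 2.1.0, the counter HTSeq 0.5.4 and DESeq, besides SAMtools 0.1.19, CASAVA 1.8.2 and FastQC 0.10.0. The annotation and strand setting are not given in the sources used here. Counts were tested with edgeR 4.0.16 (R 4.3.3): filterByExpr (minimum count 10, total 15) kept 13294 of 18919 genes, TMM scaling, a quasi-likelihood fit of 8 groups over 24 libraries (16 residual degrees of freedom), and Benjamini-Hochberg adjustment within each of 17 contrasts (threshold 0.05). The fit was tested on counts simulated without a shared effect of replicate number, which cannot show how it handles the pairing described below. Alternatives used DESeq2 1.42.0, limma 3.58.1 on log2(signal + 1), other scalings and filters, replicate blocks, and leaving out libraries. Intervals of counts cover counting error only. Positions and exon lengths are from GENCODE vM21 (GRCm38).

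The 48 genes and all lists were chosen with earlier results of these data known. In each contrast against untreated cells, between genotypes and of interactions, up to 6 called genes of the set with the largest rise and up to 6 with the largest fall are named. Levels per library are given for up to 4 of each in WT cells at LPS 10 ng/ml, for the largest interactions and for Tfeb and Tfe3. The 4 most abundant uncalled genes are also named. From each other list, up to 3 called genes of largest change and the most abundant uncalled one are named, from contrasts chosen after their values were seen. Further values of Flcn, and of genes beyond these numbers, were chosen after seeing them. Replicate numbers were checked over 9582 genes (mean CPM of at least 5). Deviations from group means correlated at 0.642 to 0.967 between libraries of the same genotype and number, and at -0.785 to 0.391 with other numbers. Across genotypes, at the same treatment, the range was 0.822 to 0.878 among libraries numbered 1. It was 0.372 to 0.484 among those numbered 2, and 0.209 to 0.302 among those numbered 3. The pairing comes from the data, since the labels do not say what a number shares. The main fit, its intervals and the remarks on overlap leave it out, so they include the spread between replicate numbers. A gene that this rule would name is not reported here.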

Additional observations from a re-analysis of the deposited data

Results flagged for a closer look

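The response of several genes to fibronectin or LPS differed between KO and WT cells by a test of the difference itself (log2 change in KO minus that in WT, edgeR). Tfeb differed by 2.95 for FN and 2.01 for LPS 10 ng/ml, and Tfe3 by 0.82 for FN and 0.61 for LPS 10 ng/ml. Cln3 differed by -1.53 and Atp6v1e1 by -1.14 for FN. Ctsz differed by -0.45 for FN, and this value was 0.2 over library totals alone. Groups of 3 libraries are too small for a test of single outlying libraries.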

How the results depend on the processing

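Of 98 calls of a gene in a contrast, 50 held under every alternative tried (11 settings and leaving out each library). Of 3414 values under alternatives, 3119 kept direction and call, 274 lost the call and 21 changed sign. All sign changes came from scaling by library totals alone, which leaves the shift of all genes in the values. They were, in WT cells at LPS 10 ng/ml, Atp6v0a2 -0.384, Atp6v0b -0.001, Atp6v1h -0.15, Ctsz -0.285, and of the other lists Ap1s1 -0.136 and Cstb -0.208. With FN in WT cells they were Atp6ap2 -0.308, Atp6v0a2 -0.389, Atp6v0b -0.006, Atp6v1h -0.168, Ctsz -0.131, Ap1s1 -0.192 and Cstb -0.158. In KO cells at LPS 10 ng/ml they were Atp6v0a2 -0.055, Ctsz -0.077, Tfe3 -0.119 and Ap1s1 -0.176. Between KO and WT with FN they were Atp6ap2 0.181, Atp6v0b 0.221, Ctss 0.112, Ctsz 0.181 and Grn 0.098, and in the interaction with FN Ctsz 0.2 and Ap1s1 0.128. Between doses they were Ctsz -0.085 in KO and Atp6v0b -0.043 and Atp6v1h -0.111 in WT cells.

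Counts of called genes over library totals alone were 30 (KO LPS 10 ng/ml), 38 (WT LPS 10 ng/ml), 37 (WT FN), 5 (WT LPS 0.1 ng/ml), 27 and 24 (doses, KO and WT), 7 (KO FN against LPS 10 ng/ml), 24 and 5 (KO against WT, FN and LPS 10 ng/ml) and 13 (interaction with FN). The replicate block nested in genotype gave 30 and 25 (KO LPS 10 ng/ml and FN), 1 (KO LPS 0.1 ng/ml), 31, 32 and 20 (WT LPS 10 ng/ml, FN and LPS 0.1 ng/ml), 24 and 23 (doses, KO and WT), 17 (KO FN against LPS 10 ng/ml), and 25, 6 and 2 (interactions with FN, LPS 10 and 0.1 ng/ml). A replicate block over all libraries gave 7 (KO FN), 1 (KO LPS 0.1 ng/ml), 9 and 24 (WT LPS 0.1 and 10 ng/ml), 7 (KO FN against LPS 10 ng/ml), 19, 5 and 5 (KO against WT with FN, LPS 0.1 and 10 ng/ml) and 11 (interaction with FN). Neither block ended a call, and shares of all genes under the blocks are not given here.

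DESeq2 gave 6 (KO FN against LPS 10 ng/ml), 1 (KO LPS 0.1 ng/ml), 4 (KO against WT, LPS 0.1 ng/ml), 5 (WT LPS 0.1 ng/ml) and 8 (interaction with FN, also 8 with RLE scaling). limma gave 6, 2 and 5 for KO FN against LPS 10 ng/ml, KO against WT at LPS 0.1 ng/ml and WT LPS 0.1 ng/ml. A 5 CPM filter gave 5, 1 and 2 for KO FN against LPS 10 ng/ml, KO LPS 0.1 ng/ml and KO against WT at LPS 0.1 ng/ml, and no filter gave 2 for KO FN. Upper-quartile scaling gave 6 and 2 for KO FN against LPS 10 ng/ml and KO against WT at LPS 0.1 ng/ml. Of all genes it called 2364 and 1183 there, and RLE scaling called 3016 for the interaction with FN. The compared groups fitted alone gave 10 (KO LPS 10 ng/ml), 7 (KO doses), and 6 and 0 (KO against WT, FN and LPS 0.1 ng/ml). Without the Rn45s-rich libraries the counts were 2 (KO against WT, LPS 0.1 ng/ml) and 5 (WT LPS 0.1 ng/ml). Counts of all genes under DESeq2, limma, the filters, the groups fitted alone and without the Rn45s-rich libraries are not given here. The cause of these moves was not tested.

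Leaving out 1 library at a time gave 0 to 1, 13 to 17 and 2 to 5 calls in KO cells (LPS 0.1, LPS 10 ng/ml, FN) and 2 to 5, 12 to 18 and 11 to 17 in WT cells. Of all genes these fits called 55 to 134, 4910 to 5723 and 1558 to 2298 in KO cells. In WT cells they called 1303 to 2530, 5868 to 6649 and 5927 to 6755 of all genes. Between KO and WT it gave 0 to 0 untreated, 0 to 2, 2 to 3 and 10 to 13 (LPS 0.1, LPS 10 ng/ml, FN), and for the interactions 0 to 0, 2 to 2 and 4 to 6. The all-gene ranges were 1 to 2, 596 to 1919, 1290 to 2216 and 4378 to 5193 between KO and WT. For the interactions they were 180 to 617, 428 to 833 and 2615 to 3128. Between doses it gave 8 to 13 in KO and 6 to 7 in WT cells, and for FN against LPS 10 ng/ml 3 to 5 in KO and 0 to 0 in WT cells. Between doses 4144 to 4930 of all genes were called in KO and 2929 to 4329 in WT cells. For FN against LPS 10 ng/ml the all-gene ranges were 1479 to 2375 in KO and 0 to 0 in WT cells. Depth was lowest for Tfeb, Atp6v1g2 and Atp6v0e2, with as few as 13, 30 and 32 reads in a library.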
